A study of Mus musculus with 56 samples.

Results

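Muscle samples that carried much slow-fibre RNA were set against samples that carried little, on expression arrays of the gastrocnemius, a muscle of the calf, from C57BL/6 mice, all female. From the 56 arrays, the 12 whose intensity for Glycam1 exceeded 2000, called Glycam1-high here, were left out. The other 44, each from a different mouse, were ranked by Myh7, the myosin heavy chain of slow fibres. The 14 highest arrays form the slow-fibre-rich set and the 14 lowest the slow-fibre-poor set, 28 of 56 arrays in all, with 16 arrays between them. The mice breathed mainstream cigarette smoke (4%) or air, the sham exposure, through the nose for 2, 12 or 24 weeks. In the cessation arms, sham exposure for 12 weeks came after 12 weeks of smoke. Each group had 6 mice, except smoke for 12 weeks, which had 8 arrays from 7 mice. The 9 groups comprised untreated mice of week 0, 3 groups each of sham air and of smoke, and cessation arms labelled FA and RA. The labels do not spell out FA or RA, and the sham air groups are labelled FA as well. The labels give neither a genetic change nor the age of the mice. Each muscle was cut into sections under 5 mm thick, and the labels do not say which part of the muscle gave the RNA.

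A muscle fibre is built around 1 main myosin heavy chain. Slow (type I) fibres use Myh7, contract slowly, resist fatigue and burn fatty acids, ketone bodies and lactate in their many mitochondria. Fast fibres use Myh2 (type IIa), Myh1 (type IIx) or Myh4 (type IIb), and the type IIb fibres lean on glycogen and glycolysis. Each kind also has its own troponins, myosin light chains and calcium pump, so a slow fibre differs from a fast fibre in a whole set of paired genes. The mouse gastrocnemius is mostly fast muscle with slow fibres gathered in its deep part. The soleus, a mixed muscle richer in slow fibres, lies directly beneath it.

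The sequences that frame these genes are shown first, as background. Whether they bear on the levels of these genes from sample to sample was not tested. Promoter sequences from RefSeq (GRCm38.p6) cover the 250 bases before each start and were found for Myh7 and for 7 of the 8 genes whose level rose with Myh7 in the arrays of the test described later. The eighth is Atp2a2. Capitals mark the muscle CAT box, CATTCC, or its reverse complement GGAATG, the site of TEAD factors.
Myh7 (chr14:54994627-54994876, minus strand): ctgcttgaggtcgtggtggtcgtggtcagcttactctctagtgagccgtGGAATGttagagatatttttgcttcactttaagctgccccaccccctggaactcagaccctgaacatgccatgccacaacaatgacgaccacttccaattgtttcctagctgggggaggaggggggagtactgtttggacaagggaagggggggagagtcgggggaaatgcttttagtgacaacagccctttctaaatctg
Tnnc1 (chr14:31208062-31208311, plus strand): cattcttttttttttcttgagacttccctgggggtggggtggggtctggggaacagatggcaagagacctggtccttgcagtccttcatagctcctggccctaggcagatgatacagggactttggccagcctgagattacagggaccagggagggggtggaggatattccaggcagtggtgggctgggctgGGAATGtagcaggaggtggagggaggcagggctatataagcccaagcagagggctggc
Myl3 (chr9:110763428-110763677, plus strand): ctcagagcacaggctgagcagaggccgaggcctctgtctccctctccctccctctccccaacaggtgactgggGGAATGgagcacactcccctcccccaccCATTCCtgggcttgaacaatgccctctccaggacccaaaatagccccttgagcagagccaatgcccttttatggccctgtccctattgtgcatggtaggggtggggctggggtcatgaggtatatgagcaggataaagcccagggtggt
Tnni1 (chr1:135799171-135799420, plus strand): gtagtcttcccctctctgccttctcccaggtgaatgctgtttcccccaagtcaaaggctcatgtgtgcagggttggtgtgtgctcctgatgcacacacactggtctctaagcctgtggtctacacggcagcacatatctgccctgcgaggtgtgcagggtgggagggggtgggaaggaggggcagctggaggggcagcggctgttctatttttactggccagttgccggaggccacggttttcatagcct
The box occurred in 3 of these 8 promoters, those of Myh7, Tnnc1 and Myl3, and in 12.6% of the 27025 promoters of the table. It was also present for 3 of 13 slow contractile and calcium genes and for 3 of 10 of their fast counterparts. Tnni1, the gene of lowest p in that test, had no match in this window. The E-box CANNTG, read on both strands, occurred in 66.1% of all promoters, in each of the 13 slow ones, in 8 of the 10 fast ones and in 7 of the 8 of Myh7 and the genes that rose with it. The MEF2 box was found in 1.7% of all promoters, in 2 of 13 slow ones, in 2 of 10 fast ones and in none of the 8 of Myh7 and the genes that rose with it. E-boxes and MEF2 boxes were matched to letters alone, as was the CAT box, and a match shows no binding.

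Myh7 and its close relative Myh7b each carry a microRNA inside the gene. The mature microRNAs from RefSeq are shown with the seed, bases 2 to 8, in capitals, since both genes belong to the slow set and their microRNAs read nearly the same seed.
mmu-miR-208b-3p (inside Myh7): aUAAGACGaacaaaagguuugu
mmu-miR-499-5p (inside Myh7b): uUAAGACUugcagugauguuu
The seeds share their first 6 of 7 bases. The microRNAs themselves were not measured on these arrays.

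Levels are given as log2 of the deposited intensity plus 16, and a difference of 1 is a 2-fold change on that scale. Myh7 lay between 12.82 and 13.15 (median 12.95) in the slow-fibre-rich arrays and between 11.25 and 12.44 (median 12.10) in the slow-fibre-poor arrays. The ranking divides a continuous range at its upper end. The lowest slow-fibre-rich array had a Myh7 intensity of 7191 and the next array down 7190. At the lower end, the highest slow-fibre-poor array stood at 5536 and the array above it at 5744. The lowest array of all, smoke for 24 weeks replicate 5, stood at 2423. These Myh7 values chose the arrays and are a description. Because Myh7 and the other genes were read from the same arrays, every difference between the sets is also given without a test. Differences come from a limma fit with experimental group as a covariate, as estimate ± SE with 14 arrays a set. They rest on the 5 of 9 groups that had arrays in both sets, with 11 slow-fibre-rich and 8 slow-fibre-poor arrays.

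The test was made on arrays that the contrast did not use. In 27 arrays, the 16 between the sets and 11 of the 12 left out, the slope of each gene on Myh7 was fitted, with group, kind of array and the mean of 8 lymphocyte genes as covariates. The other array left out came from mouse G8, whose second array was among the 16. Myh7 ran from 12.49 to 12.81 in the 16 and from 11.60 to 13.10 in the 11. Most of the range of Myh7 in this test thus came from the Glycam1-high arrays. A slope of 1 means that the gene doubled when Myh7 doubled. Across 12350 genes, 8 had a positive slope at a Benjamini-Hochberg adjusted p under 0.05, a share of 0.0648%, and 1 had a negative slope, a share of 0.0081%. In the 16 intermediate arrays alone, fitted without covariates, Tpm3 was the only gene that passed. Another 2 counts describe the sets themselves. A difference of at least 1 in either direction was seen for 6 genes, a share of 0.0486%, and every slow-fibre-rich array lay above every slow-fibre-poor array for 6 genes, again 0.0486%. Of the 8 genes with a positive slope, 7 were in the lists of slow contractile and calcium genes. The lists were chosen with earlier results of these data known, so these counts are read as descriptions.

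The 44 arrays, labelled gastrocnemius, held RNA of both fibre kinds, since Myh7, Myh2, Myh1 and Myh4 were all far above the filter in every array. Array medians ran from 62.6 to 70.5 in the slow-fibre-rich set and from 63.0 to 68.8 in the slow-fibre-poor set. Lymphocyte genes, on the mean of the 8, lay between 5.05 and 6.49 and between 5.06 and 5.84, against 8.41 to 11.50 in the 12 arrays left out. Glycam1 itself, a gene of lymph node vessels, was at most 307 in the arrays kept and at least 6944 in those left out. The title number, which ends the title of each array, had a median of 56.5 in the slow-fibre-rich set and 97.5 in the slow-fibre-poor set. Whether it marks an order or a batch was not tested. Sets differed in when the mice were sampled. Of the slow-fibre-rich arrays, none came from week 0, 2 from week 2, 3 from week 12 and 9 from week 24. Of the slow-fibre-poor arrays, 2 came from week 0, 7 from week 2, 1 from week 12 and 4 from week 24. Time is part of the group, which is a covariate of both fits. The ranges, medians and overlaps of the sets are given without that covariate, so time is not taken out of them.

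**Figure D1:**
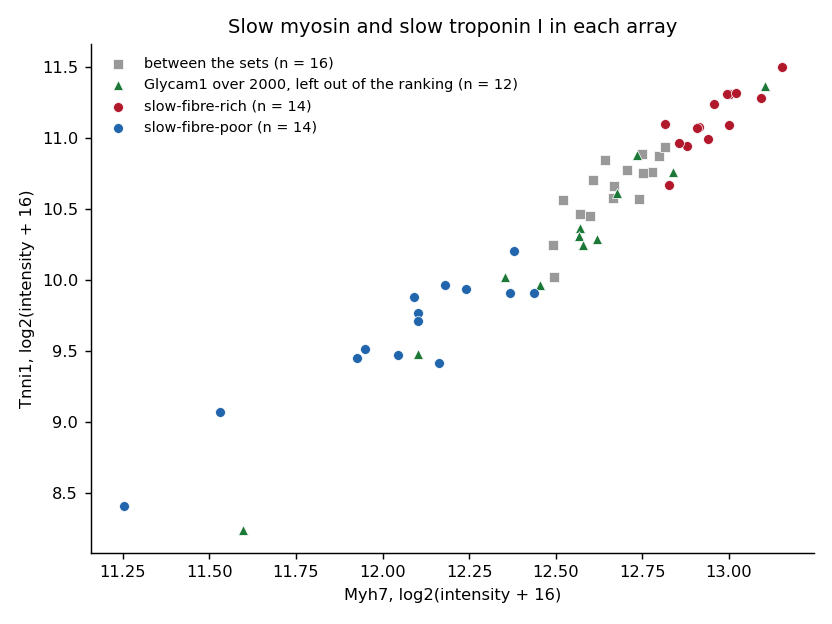
Level of Tnni1 against level of Myh7, both as log2(intensity + 16), 1 point per array, for the 14 slow-fibre-rich, 16 intermediate, 14 slow-fibre-poor and 12 Glycam1-high arrays. Tnni1 runs from 8.41 in the lowest slow-fibre-poor array to 11.50 in the highest slow-fibre-rich array. The lowest value plotted, 8.25, is that of a Glycam1-high array.

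The troponin and tropomyosin of the slow thin filament separated the sets without overlap. Tnni1, the inhibitory troponin subunit of slow fibres, was lowest at 10.67 and highest at 11.50 (median 11.10) in the slow-fibre-rich arrays. It was between 8.41 and 10.21 (median 9.74) in the slow-fibre-poor arrays. No array of one set reached the other, and the difference was 1.55 ± 0.17, a 2.93-fold change. In the arrays outside the sets Tnni1 rose by 1.91 ± 0.16 (SE) for each unit of Myh7 (adjusted p = 5.60e-06). On the log2 scale Tnni1 thus moved further than Myh7, which reached 13.15 where the highest level of the whole table was 13.96. In the 16 intermediate arrays alone, without the covariates, the slope was 1.89 (adjusted p = 0.29), and in the 11 Glycam1-high arrays alone, with the lymphocyte mean as covariate, it was 1.88 (adjusted p = 0.00056). Whether those samples held more slow fibres or more slow RNA in each fibre cannot be told apart in bulk muscle.

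Tpm3, which encodes slow tropomyosin alongside forms made in all cells, lay between 11.18 and 11.86 (median 11.50) in the rich set. In the poor set it lay between 9.38 and 10.80 (median 10.52). The sets again did not overlap. The difference was 2.29-fold, or 1.20 ± 0.14 on the log2 scale, and the slope outside the sets was 1.26 ± 0.17 (adjusted p = 0.0023). As the mean of all its probe sets, Tpm3 had a slope of 0.65 (adjusted p = 0.020). Tnnt1, the tropomyosin-binding troponin subunit of slow fibres, ran from 12.52 to 12.99 (median 12.76) against 10.99 to 12.03 (median 11.85). Its difference was 0.95 ± 0.12 and its slope 1.05 ± 0.14 (adjusted p = 0.0029), so it moved about as much as Myh7. Tnnc1, the calcium-binding troponin of slow and cardiac muscle, ran from 12.89 to 13.21 (median 13.02) against 11.43 to 12.45 (median 12.32). Its difference was 0.89 ± 0.10 and its slope 0.78 ± 0.12 (adjusted p = 0.0076). Tnnc1 is one of the genes with a CAT box before its start. All 4 measured genes of the slow thin filament list passed upwards outside the sets, where 0.0648% of all genes did. None of the 4 had overlapping sets, which was so for 0.0486% of all genes.

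**Figure D2:**
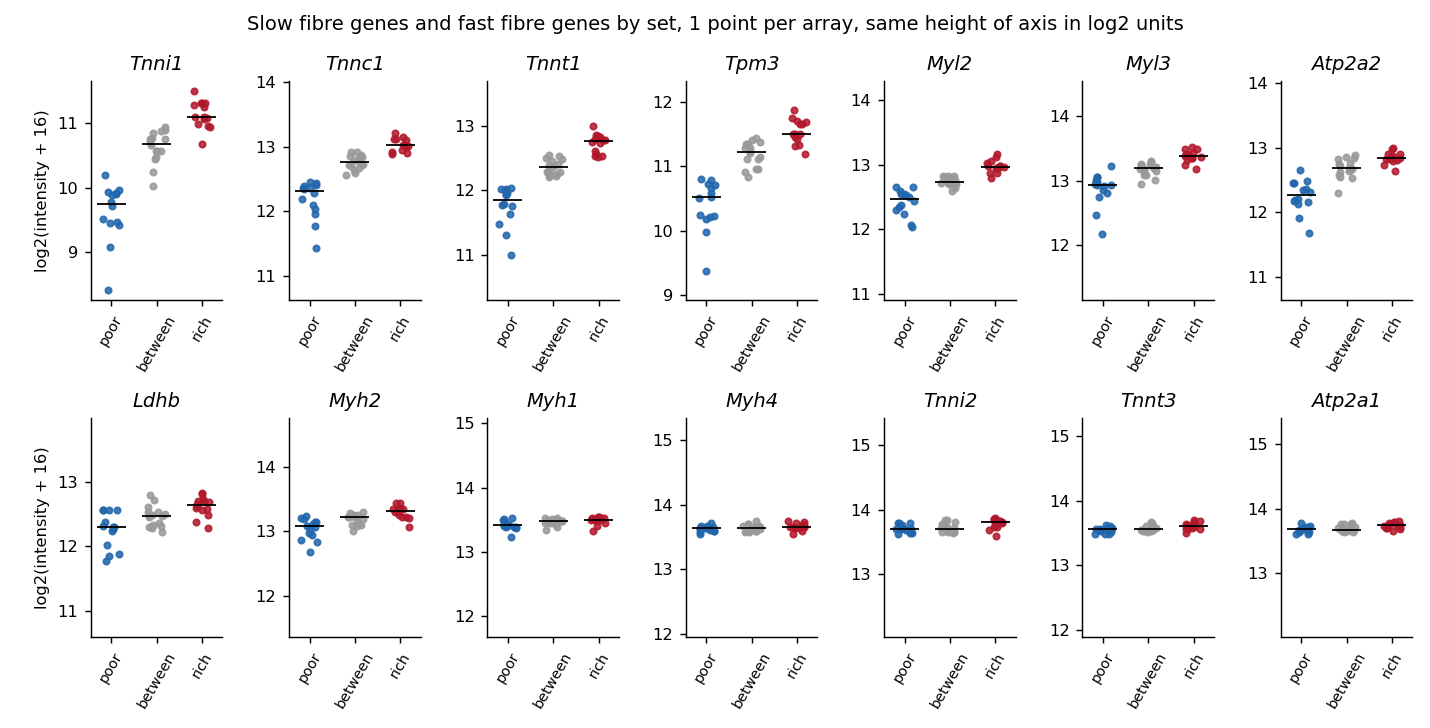
Level of 8 slow or oxidative fibre genes and of 6 fast myosin, troponin and calcium pump genes, as log2(intensity + 16), 1 point per array, in the slow-fibre-poor (n = 14), intermediate (n = 16) and slow-fibre-rich (n = 14) arrays. Bars are medians and every axis spans the same number of log2 units. Tnni1 medians climb from 9.74 through 10.68 to 11.10, while Myh4 stays at 13.64, 13.64 and 13.66.

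Among the thick filament genes the light chains moved with Myh7. Myl2, the regulatory light chain of slow and ventricular muscle, lay between 12.80 and 13.16 (median 12.97) in the rich set and between 12.04 and 12.66 (median 12.47) in the poor set. The sets did not overlap, the difference was 0.53 ± 0.08 and the slope outside the sets was 0.65 ± 0.09 (adjusted p = 0.0029). Myl3, the essential light chain of slow fibres, ran from 13.18 to 13.52 (median 13.38) against 12.18 to 13.23 (median 12.94), and 13 of 14 rich arrays lay above every poor array. Its difference was 0.52 ± 0.09 and its slope 0.82 ± 0.11 (adjusted p = 0.0023). The suffix of its probe set marks sequence shared with other transcripts. In all, 2 of the 6 thick filament genes other than Myh7 passed the test, where 0.0648% of all genes passed upwards.

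The other thick filament genes gave values that did not pass. Myh7b, an ancestral slow-type myosin, had a difference of 0.81 ± 0.12 and a slope of 1.26 ± 0.28 (adjusted p = 0.28), and 12 of 14 rich arrays lay above every poor array. Myom3, an M-band protein, had a difference of 0.78 ± 0.18 and a slope of 1.07 ± 0.31 (adjusted p = 0.79). Both slopes were as steep as those of the genes that passed, with larger errors. Mybpc1, called slow myosin-binding protein C, was nearly level. It ran from 12.86 to 13.06 in the rich set and from 12.68 to 13.04 in the poor set, with a difference of 0.08 ± 0.05 and a slope of 0.06 ± 0.09. Myl6b, a further alkali light chain of slow fibres, differed by -0.11 ± 0.15 in the fit with group, where the set means were 6.01 (rich) and 5.89 (poor). Among other myosins, Myh6, the atrial myosin and near-identical neighbour of Myh7, differed by 1.36 ± 0.26 with a slope of 1.93 ± 0.60 (adjusted p = 0.79). Its level is low, with a mean of 6.26 where the filter lies at 5.71. Signal from Myh7 on the Myh6 probes cannot be told apart from Myh6 RNA. Myl10, a regulatory light chain, differed by 1.05 ± 0.24 with a slope of 1.28 ± 0.72 (adjusted p = 0.94), and was picked after its values were seen.

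Of the slow calcium handling genes, Atp2a2, the calcium pump of slow and cardiac muscle, lay between 12.65 and 12.99 (median 12.85) in the rich set. It lay between 11.68 and 12.66 (median 12.26) in the poor set, and 1 rich array lay below the highest poor array. The difference was 0.62 ± 0.08 and the slope 0.82 ± 0.13 (adjusted p = 0.011). Taken as the mean of all its probe sets, Atp2a2 had a slope of 0.54 and did not pass (adjusted p = 0.81). Casq2, the calcium store protein of slow and cardiac muscle, differed by 0.62 ± 0.10 and had a slope of 1.58 ± 0.31 (adjusted p = 0.092). Its probe set is also marked as shared. Phospholamban (Pln), which restrains Atp2a2, differed by 0.15 ± 0.08, and sarcolipin (Sln) by 0.10 ± 0.33. In both cases the sets overlapped over most of their range, and neither slope passed.

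**Figure D3:**
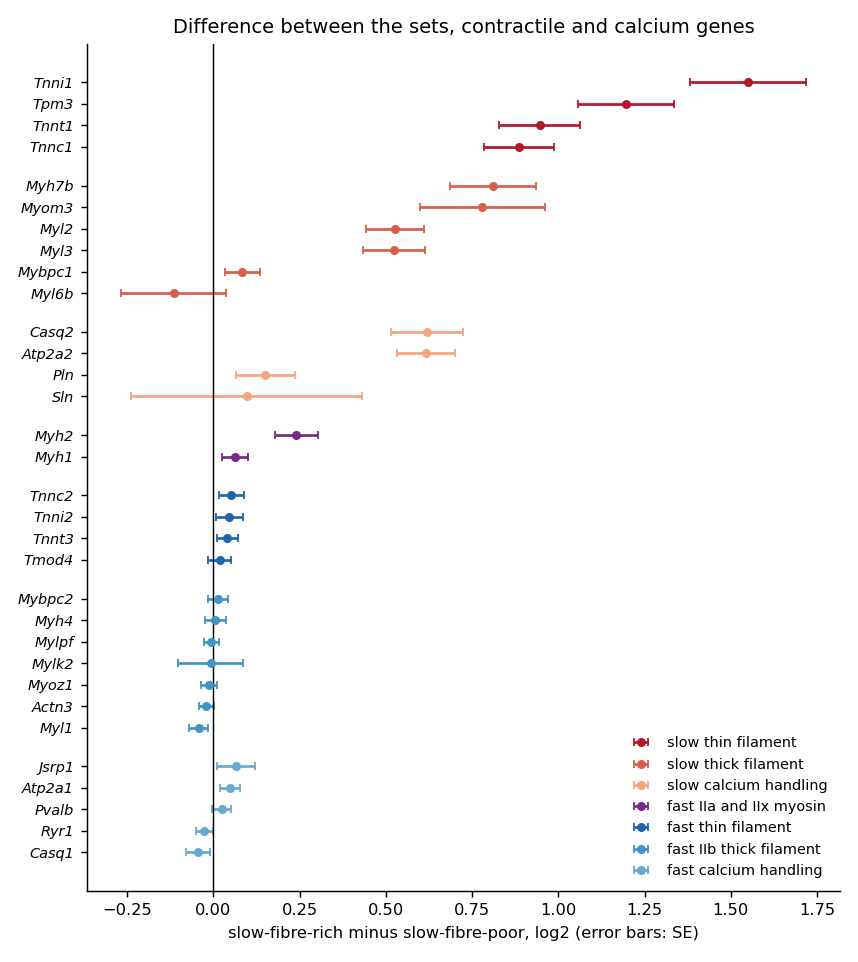
Difference between the slow-fibre-rich and slow-fibre-poor sets (log2, 14 arrays each, experimental group as covariate) for each measured contractile and calcium gene, with SE as error bars, grouped by list. Slow genes reach 1.55 (Tnni1), while the 16 fast thin filament, type IIb and fast calcium genes lie between -0.05 and 0.07.

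No fast counterpart passed the test in the opposite direction. Over the 16 measured genes of the type IIb thick filament, the fast thin filament and fast calcium handling, differences ran from -0.05 to 0.07 with a median of 0.01, and no slope passed upwards or downwards. Over the 14 slow contractile and calcium genes the median was 0.62, and over all 12350 genes it was near 0, with 49.3% of differences above 0. Myh4, the type IIb myosin, lay between 13.55 and 13.76 (median 13.66) in the rich set and between 13.55 and 13.72 (median 13.64) in the poor set. The sets covered the same range, the difference was 0.01 ± 0.03, and the slope was 0.02, with a 95% interval from -0.18 to 0.21. Tnni2, the fast troponin I, differed by 0.05 ± 0.04 and had a slope of -0.07 (95% interval from -0.32 to 0.17). Atp2a1, the fast calcium pump, differed by 0.05 ± 0.03, with a slope interval from -0.23 to 0.19. Parvalbumin (Pvalb), the calcium buffer of fast fibres, differed by 0.02 ± 0.03, with an interval from -0.23 to 0.14.

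The fast genes have high levels on these arrays. The highest level in the table was 13.96, and 12 of the 16 fast genes had a mean level above 13, against 1 of the 14 slow genes, Myl3, which passed. Whether these probe sets are saturated was not tested. Myh4 varied by an SD of 0.05 between the 44 kept arrays. The 2 fast genes of lowest level were Mylk2, the myosin light chain kinase of skeletal muscle, and Jsrp1, a protein of the calcium release site. Mylk2 differed by -0.01 ± 0.09 and had a slope of 0.02 (95% interval from -0.66 to 0.69). Jsrp1 differed by 0.07 ± 0.05 and had a slope near 0 (95% interval from -0.42 to 0.43). Those 2 were chosen after their levels were seen. Both intervals are wide and include falls as well as rises.

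The myosin of oxidative fast fibres was higher in most rich arrays. Myh2, the type IIa myosin, ran from 13.07 to 13.43 (median 13.31) in the rich set and from 12.68 to 13.23 (median 13.08) in the poor set. Of the 14 rich arrays, 10 lay above every poor array. The difference was 0.24 ± 0.06. Its slope outside the sets was 0.44 ± 0.10 (95% interval from 0.24 to 0.64), and it did not pass after adjustment over all genes (adjusted p = 0.26). Myh1, the type IIx myosin, differed by 0.06 ± 0.04, with a slope interval from -0.09 to 0.28.

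Further genes known from slow or strained fibres were mostly higher in the rich set, and none of the 11 passed the test. Of these, 10 had a difference above 0, and the median was 0.49. Ankrd2, a stretch-responsive titin-binding protein, differed most, by 0.90 ± 0.22, and its slope was 0.81 ± 0.51. Csrp3, a Z-disc LIM protein, differed by 0.64 ± 0.20 and Lmod2, an actin filament elongator, by 0.52 ± 0.12. Myoz2, the calsarcin of slow fibres, ran from 12.35 to 12.80 (median 12.54) against 11.49 to 12.35 (median 12.07), with 13 of 14 rich arrays above every poor array. Its slope of 0.86 ± 0.21 did not pass (adjusted p = 0.43). Myoglobin (Mb), the oxygen store, differed by 0.21 ± 0.05 with a slope of 0.28 ± 0.10 (adjusted p = 0.81).

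Transcription factors and coactivators of the slow programme differed by little at the median, with larger differences for Prox1, Esrrg and Esrrb. Of 17 measured, 13 were above 0, the median difference was 0.09, and no slope passed. Prox1, a homeodomain factor of slow fibres, was the member with the largest difference, 0.66 ± 0.10. It lay between 8.40 and 9.31 (median 8.82) in the rich set and between 7.93 and 8.66 (median 8.18) in the poor set, with 12 of 14 rich arrays above every poor array. Outside the sets, however, its slope was 0.28 ± 0.32 (95% interval from -0.39 to 0.95). The estrogen-related receptors Esrrg and Esrrb, which drive oxidative genes, differed by 0.62 ± 0.12 and 0.56 ± 0.12. Their slopes were 1.16 ± 0.32 (adjusted p = 0.76) and 0.86 ± 0.36 (adjusted p = 0.93). Ppargc1a, the coactivator of mitochondrial biogenesis, differed by -0.06 ± 0.08 in the fit with group, where the set means were 11.12 (rich) and 11.10 (poor), and the sets overlapped. Among 11 genes listed as regulators of the fast programme 5 were above 0, with a median of -0.02. Sox6, a repressor of slow genes, differed by -0.11 ± 0.05, with a slope interval from -0.37 to 0.42. Vgll2, a cofactor of TEAD proteins, was the highest of the 11, at 0.35 ± 0.10. Its place in that list is a label given beforehand, and its role in fast or slow fibres was not tested.

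Fuel genes differed by little at the median of each list. Of 24 measured genes of fatty acid uptake and oxidation, 22 had a difference above 0, with a median of 0.14 and the highest at 0.42 (Plin5, a lipid droplet protein, on a probe set marked as shared). Outside the sets all 24 slopes were above 0, where 60.9% of all genes were, and none of the 24 passed. Their median slope was 0.35. In the same arrays 6 of 7 adipocyte genes had slopes above 0, with a median of 1.09 and none past the test, and their part in the fatty acid slopes was not tested. Cd36, the fatty acid transporter, differed by 0.23 ± 0.06, with a slope of 0.82 ± 0.22 (adjusted p = 0.68). Its median was 12.00 in the 11 Glycam1-high arrays and 11.58 in the 16 intermediate ones. Fabp3, the fatty acid carrier of heart and slow muscle, differed by 0.21 ± 0.05 with a slope of 0.40 ± 0.15. Acadm, the medium-chain acyl-CoA dehydrogenase, differed by 0.11 ± 0.03 with a slope of 0.39 ± 0.13 (adjusted p = 0.79). Genes of the citric acid cycle had 12 of 17 differences above 0 and a median of 0.03. Genes of the respiratory chain and ATP synthase had 39 of 44 above 0 and a median of 0.04. Glycolysis and glycogen genes had 7 of 16 above 0 and a median of -0.01. Ldha, the lactate dehydrogenase subunit of fast fibres, differed by 0.02 ± 0.03.

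Ldhb, the lactate dehydrogenase subunit of heart and slow muscle, was the fuel gene that passed. It ran from 12.29 to 12.82 (median 12.64) in the rich set and from 11.77 to 12.56 (median 12.30) in the poor set, and 11 of 14 rich arrays lay above every poor array. The difference was 0.38 ± 0.09 and the slope outside the sets 0.92 ± 0.16 (adjusted p = 0.033). With each of 26 arrays left out in turn, Ldhb passed in 6 fits, with adjusted p values up to 0.52. Among the other 7 genes of ketone, lactate and amine use, Bdh1, which interconverts ketone bodies, differed by 0.65 ± 0.17 with a slope of 0.70 ± 0.43. Got1, a transaminase of the malate-aspartate shuttle, differed by 0.23 ± 0.06. Neither slope passed.

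**Figure D4:**
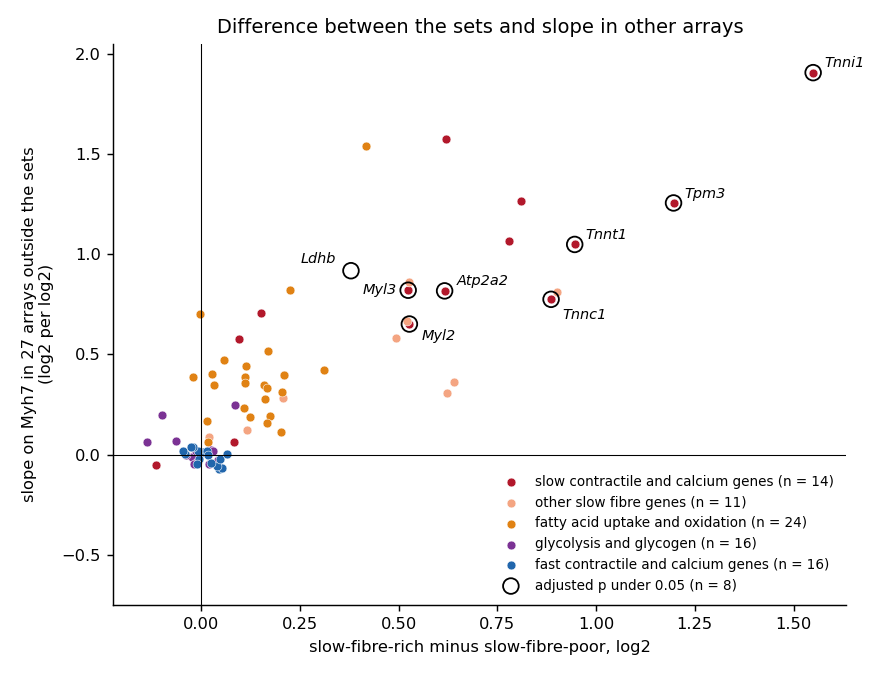
Difference between the slow-fibre-rich and slow-fibre-poor sets (x axis, log2) and slope on Myh7 in the 27 arrays outside the sets (y axis, log2 per log2), 1 point per gene, for 5 gene groups. Black rings mark the 8 list genes with an adjusted p under 0.05, of which Ldhb belongs to a further list. Tnni1 lies farthest out at 1.55 and 1.91, and the 16 fast genes lie around 0 on both axes.

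The genes that differed most between the sets, by the rule given with the processing, were 12 with higher and 10 with lower levels in the rich set after the group covariate. Of the 12, 7 were slow contractile or calcium genes given above, and another was Prox1. All 12 had a slope above 0 outside the sets, where 60.9% of all genes did. Among them 6 passed, where 0.0648% of all genes passed upwards. Those that did not include Pdlim1, a Z-line LIM protein, at 10.35 to 11.11 (median 10.82) against 9.59 to 10.60 (median 10.19). It differed by 0.71 ± 0.11 and had a slope of 0.85 ± 0.29 (adjusted p = 0.79). Sgo2a, a protector of chromosome cohesion, differed by 0.70 ± 0.09, with a slope of 0.39 ± 0.35. Cyfip2, a regulator of actin branching, differed by 0.94 ± 0.13, with a slope of 0.17 ± 0.43. It was at 8.88 to 11.27 in the 11 Glycam1-high arrays and at 7.32 to 9.17 in the 16 intermediate ones. Slc25a13, a mitochondrial aspartate-glutamate carrier, differed by 0.70 ± 0.11, with a slope of 0.44 ± 0.33. None of these 4 had sets free of overlap.

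Ift81, a ciliary transport protein, was the 1 gene without set overlap that the rule did not name, since the suffix of its probe set marks shared sequence. It ran from 8.10 to 8.70 (median 8.49) against 7.44 to 8.01 (median 7.75), with a difference of 0.68 ± 0.08. Its slope was 0.69 ± 0.26 (adjusted p = 0.84). Of the 6 genes with a difference of at least 1, Tnni1 and Tpm3 passed outside the sets. The others were Myl10 and Myh6, given above, with Csrnp1 and Tecrl, which were named after their values were seen. Csrnp1, a nuclear protein of early response, differed by 1.32 ± 0.25 with 0 of 14 rich arrays above every poor array, and its slope was 0.20 ± 0.90. Tecrl, an enzyme-like protein of heart muscle, differed by 1.08 ± 0.18 with 13 of 14 rich arrays above every poor array, and its slope was 0.35 ± 0.43. Both are low, at mean levels of 6.23 and 6.07 where the filter lies at 5.71.

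In the fit with group, no gene was lower in the rich set by as much as 1. With 10 arrays a set 5 genes were, 2 with a pseudocount of 1, 1 with title number as a covariate and 30 without the Glycam1 limit. The 10 named genes differed by -0.90 to -0.52 in the fit with group, and for each of them the sets overlapped. The sets' own means differed less for several of them. Mogat1 had means of 6.01 in the rich and 6.08 in the poor set, and Glycam1 of 5.86 and 5.89, and for both the rich set had the higher median. Their slopes outside the sets were below 0 for 5 and above 0 for the other 5, and none passed. Krt18, an epithelial keratin, differed by -0.90 ± 0.37, where the means were 6.77 and 7.19. Ppp1r14bl differed by -0.76 ± 0.22. Chrng, the acetylcholine receptor subunit of immature fibres, differed by -0.53 ± 0.14, where the means were 5.97 and 6.19, and its slope was 0.11 ± 0.32. Lgals12 and Mogat1, genes of fat cells and lipid synthesis, differed by -0.55 ± 0.24 and -0.52 ± 0.18, and their slopes outside the sets were 1.92 ± 0.99 and 1.87 ± 0.95. The rest were Tmc8, Isl1, Ddc, Clca4a and Glycam1, the last of which was the marker used to leave arrays out. The gene with a negative slope, Slc26a11, an anion transporter, was at 6.47 to 7.06 (median 6.85) in the rich set and at 6.72 to 7.15 (median 6.91) in the poor set. It differed by -0.20 ± 0.06 and had a slope of -0.85 ± 0.15 (adjusted p = 0.031). It passed in 12 of the 26 fits that left out 1 array, with adjusted p values up to 0.28. Its slope was -0.32 without group (adjusted p = 0.55), -0.38 in the intermediate arrays alone (0.91) and -0.32 in the Glycam1-high arrays alone (1.00), the last a fit without group and that of the intermediate arrays one without covariates. It also did not pass with no filter, a pseudocount of 64, robust moderation or Tnni1 as the measure (adjusted p from 0.066 to 0.18).

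Markers of other cell types were compared in the same way. Of 13 endothelial genes, 11 were above 0, with a median of 0.14, and their mean level ran from 9.24 to 9.53 in the rich set and from 9.07 to 9.40 in the poor set. The mean differed by 0.15 ± 0.03, and none of the 13 slopes passed. Kdr, the receptor for vascular endothelial growth factor, differed by 0.34 ± 0.09 and Pecam1, a junction protein of endothelium, by 0.32 ± 0.09. Vwf, a clotting factor of endothelium, differed by -0.15 ± 0.11. Macrophage genes had 7 of 7 above 0 and a mean that differed by 0.21 ± 0.20. Adipocyte genes had 0 of 7 above 0 (mean difference -0.20 ± 0.22 without Car3, which another list holds). In the 27 arrays of the test 6 of 7 had slopes above 0, with a median slope of 1.09, and none passed. Adiponectin (Adipoq), for example, had a slope of 0.94 ± 0.76. Nerve genes had 3 of 4 differences above 0 (0.05 ± 0.22), and all 4 slopes were above 0 with a median of 0.91. Tendon genes had 1 of 7 differences above 0 (mean -0.14 ± 0.19) and 0 of 7 slopes, with a median slope of -0.38. No nerve or tendon gene passed. There was a mean difference of -0.11 ± 0.12 in lymphocyte genes other than Glycam1. The part of these cell types in the differences and slopes of the slow genes was not tested. Genes of satellite cells and developing fibres had 1 of 7 above 0, which was Myh3, the embryonic myosin, at 0.24 ± 0.13. Genes of the neuromuscular junction and spindle had 5 of 10 above 0 and a median of 0.03. The single red blood cell gene measured, Alas2, differed by 0.27.

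The covariates of the test bear on how many genes passed. Without group, 54 genes passed, and without the lymphocyte mean 5046 did. In the 16 intermediate arrays, fitted without covariates, 1 gene passed, Tpm3. In the 11 Glycam1-high arrays, fitted with the lymphocyte mean and without group, 3 passed, Tnni1, Tpm3 and Tnnt1. With Tnni1 in the place of Myh7, 8 genes passed. Each array was left out in turn, except the 1 that is alone in its group and cannot change the fit. Tnni1, Myl3, Tpm3, Tnnt1 and Myl2 passed in all 26 fits, Tnnc1 in 25 and Atp2a2 in 23. The 26 fits are not all different, since a group left with 1 array has that array fitted exactly. Sham air for 2 weeks, sham air for 24 weeks and cessation FA each gave the same fit whichever of their arrays was left out. Whether sample identifiers mark a batch was not tested. Among the kept arrays, 2 carry identifiers outside the block of numbers that the rest share. They are the 2 of lowest Myh7, smoke for 2 weeks replicate 4 and smoke for 24 weeks replicate 5. Without them the Tnni1 difference was 1.38, Tpm3 was 1.07, Tnnt1 0.83 and Tnnc1 0.78, and the number of genes that differed by at least 1 was 6.

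Slow-fibre content was then set against exposure, using the 44 kept arrays. Group means of Myh7 ran from 12.12 ± 0.87 (SD, n = 3) after 24 weeks of smoke to 12.87 ± 0.10 (n = 3) in the RA cessation arm. Group accounted for 33.5% of the variance, which did not pass a permutation test of the F statistic (p = 0.052 with 100000 resamples). With the Glycam1-high arrays added the share was 27.1% (permutation p = 0.049). The earliest groups were lowest beside smoke for 24 weeks. Untreated mice were at 12.42 ± 0.28 (n = 5), sham air for 2 weeks at 12.26 ± 0.25 (n = 5) and smoke for 2 weeks at 12.33 ± 0.52 (n = 6). At 12 weeks the means were 12.66 ± 0.37 with air and 12.75 ± 0.16 with smoke (n = 6 each), and at 24 weeks air was at 12.78 ± 0.30 (n = 5). Neither untreated mice nor those with 2 weeks of air gave a slow-fibre-rich array, and neither smoke for 12 weeks nor the RA arm gave a slow-fibre-poor one.

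No exposure comparison of Myh7 passed its test. Smoke minus air was 0.06 at 2 weeks and 0.09 at 12 weeks (exact permutation tests, two-sided, adjusted p = 0.90 for both over the 5 comparisons). At 24 weeks it was -0.67 (exact permutation, adjusted p = 0.80), with 3 smoke arrays at 11.25, 12.10 and 12.99. The highest of the 3 lay within the air range of 12.44 to 13.09 and the others below it. Without replicate 5 the difference was -0.23, and without replicate 3 it was -1.11. Cessation minus air at 24 weeks was 0.02 in the FA arm and 0.08 in the RA arm (exact permutation, adjusted p = 0.90 for both). Both cessation arms and the 24-week smoke group share the same 5 air arrays. The smallest p possible was 0.0022 at 2 and 12 weeks, 0.0079 for the FA arm and 0.018 where a group had 3 arrays. Tnni1 gave differences of the same sign, from -0.88 for smoke at 24 weeks to 0.24 for the RA arm, and none passed.

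**Figure D5:**
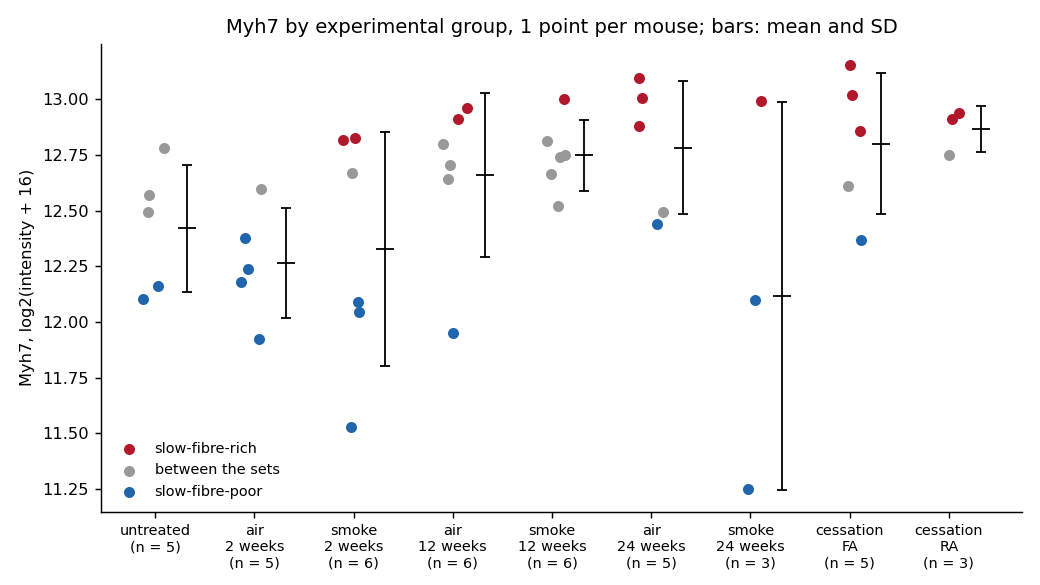
Level of Myh7, log2(intensity + 16), by experimental group in the 44 kept arrays, 1 point per mouse, coloured by set, with the mean and SD beside the points. Group means lie between 12.12 and 12.87, and smoke for 24 weeks (n = 3) has the widest spread.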

How the data were processed

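RNA of mouse gastrocnemius was measured on 56 one-colour expression arrays. The deposited values are intensities on a linear scale, 1 per probe set, made by the authors in steps that the labels do not state (not given in the sources used here). There were 45037 probe sets with values from -20.0 to 15890, of which 0.46% were negative. Arrays have no read depth, so their number limits the precision.

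Values were floored at -15 (5 values), 16 was added and log2 was taken. Probe sets with 1 gene symbol in the platform annotation, updated through RefSeq (GRCm38.p6, names only), were kept. Each gene was read from its probe set of highest mean, and 12351 of 18193 genes above the 40th percentile (5.71) remained. Of the 280 listed genes 245 were measured.

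Fits used R 4.3.3 and limma 3.58.1, with 18 residual degrees of freedom for the sets and 15 for the arrays outside them. Adjusted p values are Benjamini-Hochberg values from limma over 12350 genes, Myh7 left out. Both were tested on simulated data. Permutation tests used Python 3.11.15 and scipy 1.17.1, and figures matplotlib 3.10.9.

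The arrays, members and lists were chosen with earlier results of these data known. Besides list members, up to 12 genes each way were named by moderated t among genes with a difference of at least 0.5, 1 symbol and no suffix of shared sequence. Labels do not say that arrays of a group came from separate cages or days, so p values measure only the spread between these arrays. Alternatives were other filters, pseudocounts (1 and 64), quantile normalization, set sizes, covariates, Tnni1 as the measure and each array left out in turn. A fit without the 2 kept arrays whose identifiers lie outside the block shared by the rest was added after seeing the data.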

Additional observations from a re-analysis of the deposited data

Results flagged for a closer look

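Among the 12-week sham air mice, replicate 5 stood far below the other 5 mice in both slow markers. Its Myh7 level was 11.95, with the next mouse at 12.64 and the highest at 12.96. Its Tnni1 level was 9.52, with the next mouse at 10.78 and the highest at 11.25. In 14 group and gene combinations tested this way, chance gives about 1 such value in 20, and both values come from the same array. Without it, smoke minus air at 12 weeks in Myh7 was -0.05 in place of 0.09.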

How the results depend on the processing

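No paired analysis was possible because replicate numbers in the labels name different mice and pair none of them. The number of genes past the test outside the sets, 9, was 6 to 10 with each of 26 arrays left out. It was 1 in the intermediate arrays without covariates, 3 in the Glycam1-high arrays without group, 54 without group in all 27 and 5046 without the lymphocyte mean; under the other 9 settings it stayed within 1.5 times. The number of genes differing by at least 1, 6, all higher in the rich set, became 29 with 10 arrays a set (5 lower), 3 with 18, 10 ranked on Tnni1, 59 without the Glycam1 limit (30 lower), 2 and 10 with pseudocounts of 64 and 1 (0 and 2 lower), and 10 with title number as a covariate (1 lower). For the share of Myh7 variance between groups, adding the Glycam1-high arrays gave 27.14% (permutation p = 0.049), under 0.05. With each array left out, Myh7 differences ran from -0.036 to 0.22 (smoke at 2 weeks), -0.054 to 0.15 (12 weeks), -1.11 to -0.23 (24 weeks), -0.069 to 0.13 (cessation FA) and -0.0013 to 0.16 (RA). With the Glycam1-high arrays included the RA difference was -0.00077. None of these 5 passed in any fit. Whether the ends of the intensity scale limit the high fast genes or the low genes was not tested.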
